A study of Mus musculus with 6 samples.

Results

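The lysosome is the acid compartment in which cells break down proteins, fats, sugars and worn organelles. Its acidity comes from the V-ATPase, a rotary proton pump built of a V1 sector, which burns ATP in the cytosol, and a V0 sector, which carries protons through the membrane. Cathepsins and other hydrolases work at that low pH, and the transcription factors TFEB, TFE3 and MITF switch many of these genes on together through a DNA element with the core CACGTG. In fat, macrophages that take up lipid from fat cells are known for high lysosomal activity, and fat cells use lysosomes in the turnover of lipid droplets.

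The 40 genes described here are 16 pump genes (6 of the V0 sector, 8 of the V1 sector and 2 accessory proteins), 7 cathepsins, 8 other hydrolases, 4 membrane proteins, 2 lumenal cofactors and 3 regulators. They were taken by symbol from a table of 55011 gene symbols, all 40 were found, and all 40 were among the 13859 genes tested after the filter on low counts. RNA was measured in 6 libraries of whole visceral adipose tissue from male C57BL/6 mice, 30 weeks old, after 14 weeks of low-fat and then 16 weeks of high-fat diet, taken at zeitgeber time 0 h. All mice carried Foxp3.Cre-YFP, a Cre recombinase and fluorescent protein tied to Foxp3, the gene that defines regulatory T cells. The strain was labelled bmal1WT in 3 libraries and bmal1KO in 3, called Bmal1WT and Bmal1KO below, and the label names no floxed allele. Foxp3 drives the Cre, so the loss of Bmal1 is aimed at regulatory T cells, a small part of the tissue whose RNA was measured. The comparison asks what this genotype is linked to in visceral fat after high-fat feeding. In whole tissue, fewer cells of a type and less RNA per cell cannot be told apart.

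Library totals ran from 6514620 to 9529198 counts. Bmal1KO replicate 1, the shallowest library, had counts on 30019 genes against 19009 to 20145 in the others. Bmal1WT replicate 1 carried 3359 counts on 9 epididymis genes, against 0 to 26 in the other libraries. The tissue label fits its markers: 9 fat cell markers, such as the hormone gene Adipoq, summed to between 14478 and 29374 CPM (counts scaled to library totals, with edgeR's TMM factors). Values by library are given in the order of replicates 1 to 3. Arntl, the gene for BMAL1, was at 31.1, 28.4 and 40.1 CPM in Bmal1WT against 48.7, 32.7 and 39.0 CPM in Bmal1KO libraries, and Foxp3 had 0 counts in every Bmal1WT library and 3, 0 and 2 in Bmal1KO replicates 1 to 3. Neither checks the genotype in whole tissue.

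The 40 genes differed little between the genotypes on average. No member was called by the edgeR quasi-likelihood test after adjustment over 13859 genes (lowest Benjamini-Hochberg adjusted p = 0.416), where 0% of all tested genes were called. At an unadjusted p under 0.05 there were 0 members higher and 1 lower, against 5.05% and 4.26% of all tested genes. DESeq2 called 0 members (0.417% of all genes with an adjusted p) and limma voom 0 (0% of all tested genes). The median log2 fold change, Bmal1KO minus Bmal1WT, was -0.015 over the 40 genes and 0.018 over all tested genes, and 17 of the 40 members were higher (42.5%), against 52% of all tested genes. The member standing apart was Atp6v0e2, a small V0 subunit, at a log2 fold change of -1.07. The other feature of the data was a spread between the Bmal1KO libraries: Bmal1KO replicate 1 was the lowest of the 6 libraries for 27 of the 40 genes.

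The promoter windows show a sequence that some of these genes share. RefSeq windows on GRCm38.p6, the mm10 assembly, of 300 bases, from 250 before to 50 after a gene's start, were matched for 34 of the 40 genes. Of these, 12 (35.3%) held CACGTG, against 11.7% of 10460 tested genes with windows and 8.09% of all 27025 genes. CACGTG is the E-box core that TFEB and its relatives bind, and BMAL1 with its partner CLOCK binds E-boxes too. The longer TCACGTGA, the centre of the element known as CLEAR, stood in 7 of the 34 (20.6%), against 2.16% of tested genes. The full palindrome, TCACGTGA with a G before and a C after it, stood in 0 of the 34, against 0.765% of tested genes. All of these read the same on either strand, and each longer motif contains the shorter. The window of Atp6v0e2 held none of them. The CLEAR element was itself described from lysosomal genes, so that its share among them is no independent result. The 9 sites with TCACGTGA are printed because they show this centre in its natural surroundings, with TCACGTGA in capitals, 5′ to 3′ on the gene's strand.
Atp6v0d1, chr8:105566052-105566077, minus strand: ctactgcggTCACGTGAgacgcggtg
Atp6v0e, chr17:26676389-26676414, plus strand: gcgcgccgaTCACGTGAgcctctgtt
Atp6v1a, chr16:44139375-44139400, minus strand: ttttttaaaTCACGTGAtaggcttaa
Ctsa, chr2:164833751-164833776, plus strand: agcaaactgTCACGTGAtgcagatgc
Ctsa, chr2:164833768-164833793, plus strand: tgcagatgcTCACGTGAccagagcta
Ctsd, chr7:142387910-142387935, minus strand: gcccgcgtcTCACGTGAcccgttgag
Gla, chrX:134601217-134601242, minus strand: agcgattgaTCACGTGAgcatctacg
Gla, chrX:134601184-134601209, minus strand: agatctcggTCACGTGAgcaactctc
Mcoln1, chr8:3500464-3500489, plus strand: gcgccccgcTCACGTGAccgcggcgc

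The flanks of the printed sites differ, while the core is shared because the sites were chosen for it. Lamp1, which encodes a major protein of the lysosomal membrane, had the most cores of the 34 genes, with 4 CACGTG cores (in capitals) within the 71 bases before its start.
Lamp1, chr8:13159090-13159160, plus strand: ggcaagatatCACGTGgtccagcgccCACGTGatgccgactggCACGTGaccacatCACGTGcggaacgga

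The fold changes of genes with and without the core can be set side by side. Of the 12 genes with CACGTG, 6 were higher and 6 lower in Bmal1KO, with log2 fold changes from -0.28 to 0.41 and a median of 0.040. The 22 with a window that lacked it had a median of -0.017. The 7 with TCACGTGA had a median of 0.16, with 4 higher and 3 lower.

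The levels of the 40 genes differed from each other by far more than between libraries. Levels of different genes are compared in TPM, which divides counts by exon length and scales each library to the same sum. Cathepsins led. Ctsd, an aspartic protease, averaged 5346 TPM over the 6 libraries and Ctsb, a cysteine protease, 4154. They were followed by the cysteine protease Ctsz at 2256, by Psap, the precursor of the saposins that present lipids to hydrolases, at 2193, and by Ctsl at 1275. The order of Ctsz and Psap was not clear, since they differed by less than their SDs. Grn, which encodes progranulin, and Hexa, a subunit of the hexosaminidase that trims gangliosides, stood close together at 1069 and 1046 TPM.

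Pump genes formed a middle layer, from Atp6v0b and Atp6v1f at 518 and 571 TPM down to Atp6v1h at 47.2. The median was 188 TPM for V0 and 195 TPM for V1 subunits, so the sectors had like levels. The regulators and Mcoln1, the calcium channel of the lysosomal membrane, were lowest. Tfe3 was at 22.6, Mcoln1 at 19.4, Tfeb at 10.1 and Mitf at 8.24 TPM. Together the 40 genes took 1.73% to 3.04% of all TPM in a library, lowest in Bmal1KO replicate 1 and highest in Bmal1KO replicate 3. Ctsb alone took 28.4% to 29.8% of the counts on the 40 genes, a narrow range over libraries of both genotypes.

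**Figure D1:**
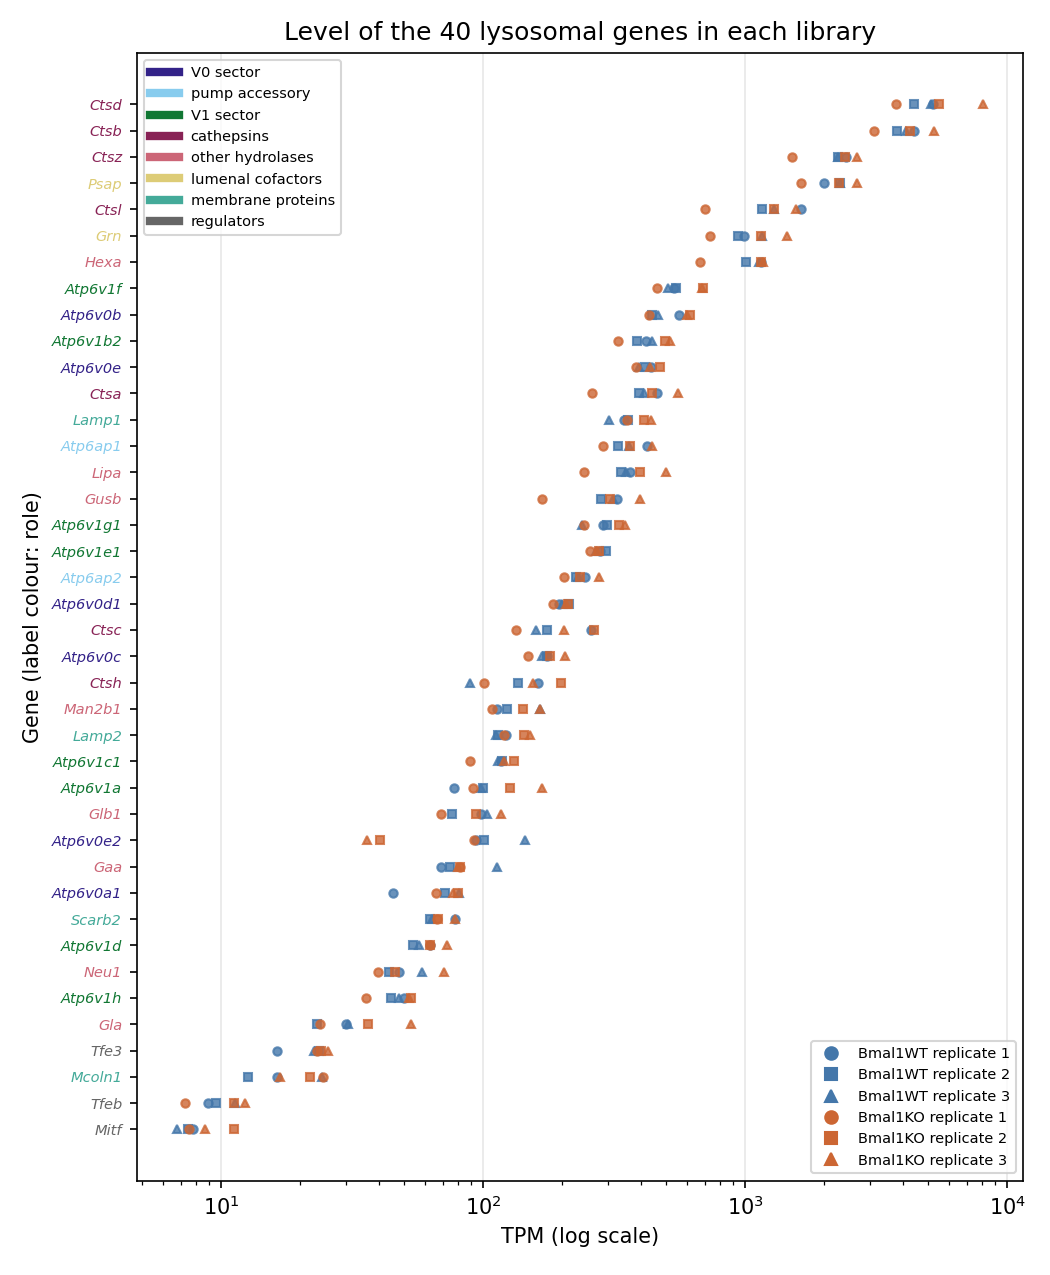
Level of each of the 40 genes in TPM (horizontal log axis) in the 6 libraries, ordered by mean. Blue symbols are Bmal1WT and orange Bmal1KO libraries, and label colours give the role. Ctsd and Ctsb lie highest and Mitf lowest, and the orange circle, Bmal1KO replicate 1, is the lowest symbol for many genes.

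Among V0 subunits, which form the membrane part of the pump, Atp6v0e2 stood apart, and the 95% intervals of the other 5 lay within a 1.5-fold change. Atp6v0e2 (ENSMUSG00000039347.7, mm10 chr6:48537615-48541801, + strand) encodes a variant of the small e subunit. It was at 91.7, 96.0 and 131 CPM in the Bmal1WT libraries and 84.1, 37.0 and 31.6 CPM in the Bmal1KO libraries, from 804, 819 and 1217 counts and 559, 327 and 255 counts. All Bmal1KO libraries thus lay under all Bmal1WT libraries, Bmal1KO replicate 1 by little and replicates 2 and 3 by far. Of the 40 genes, 1 was thus lower without overlap and 0 were higher without overlap, against 7.85% and 7.83% of all tested genes. The means were 106 ± 21.5 CPM (SD, n = 3) for Bmal1WT against 50.9 ± 28.8 CPM for Bmal1KO, and the log2 fold change was -1.07 (SE 0.33, 95% interval -1.80 to -0.33). After adjustment it missed the threshold of the edgeR test (unadjusted p = 0.00873, adjusted p = 0.416).

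The value depended on Bmal1KO replicate 1. Without that library the log2 fold change of Atp6v0e2 was -1.63 (SE 0.21) and passed edgeR's test (adjusted p = 0.0113), as the 1 of 40 members that did, against 1.09% of all genes tested in that fit. Adjusted p ranged from 9.56e-05 to 0.695 over all alternatives. Fat cell markers, of which 0 of 9 had a log2 fold change above 0 and none was at 0 in any library, were also lowest in Bmal1KO replicates 2 and 3, but highest in Bmal1KO replicate 1. Relative to the Bmal1WT mean, their median log2 CPM was -0.12, 0.042 and 0.18 in the Bmal1WT libraries and 0.24, -0.63 and -0.71 in the Bmal1KO libraries. For 5 endothelial markers, such as Cdh5, of which 0 of 5 had a log2 fold change above 0 and none was at 0, that median was -0.20, -0.43 and 0.58 in the Bmal1WT libraries and -0.25, -1.03 and -0.87 in the Bmal1KO libraries. Their sums were 447, 281 and 607 CPM in the Bmal1WT libraries and 311, 187 and 193 CPM in the Bmal1KO libraries. The part of fat cell and endothelial content in the Atp6v0e2 value was not tested.

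Its paralogue Atp6v0e (ENSMUSG00000015575.15, mm10 chr17:26663231-26699647, + strand) was at 669, 614 and 555 CPM in the Bmal1WT libraries and 546, 675 and 595 CPM in the Bmal1KO libraries, and the groups overlapped throughout. The log2 fold change was -0.017 with a 95% interval of -0.38 to 0.35. Per length, Atp6v0e2 made up 21.4% ± 4.89 (SD, n = 3) in Bmal1WT and 11.6% ± 6.69 in Bmal1KO of the e subunit transcripts. By library that was 17.6, 19.6 and 26.9% in the Bmal1WT libraries and 19.3, 7.88 and 7.65% in the Bmal1KO libraries. Bmal1KO replicate 1 lay within the Bmal1WT range, and the other Bmal1KO libraries lay well under it.

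**Figure D2:**
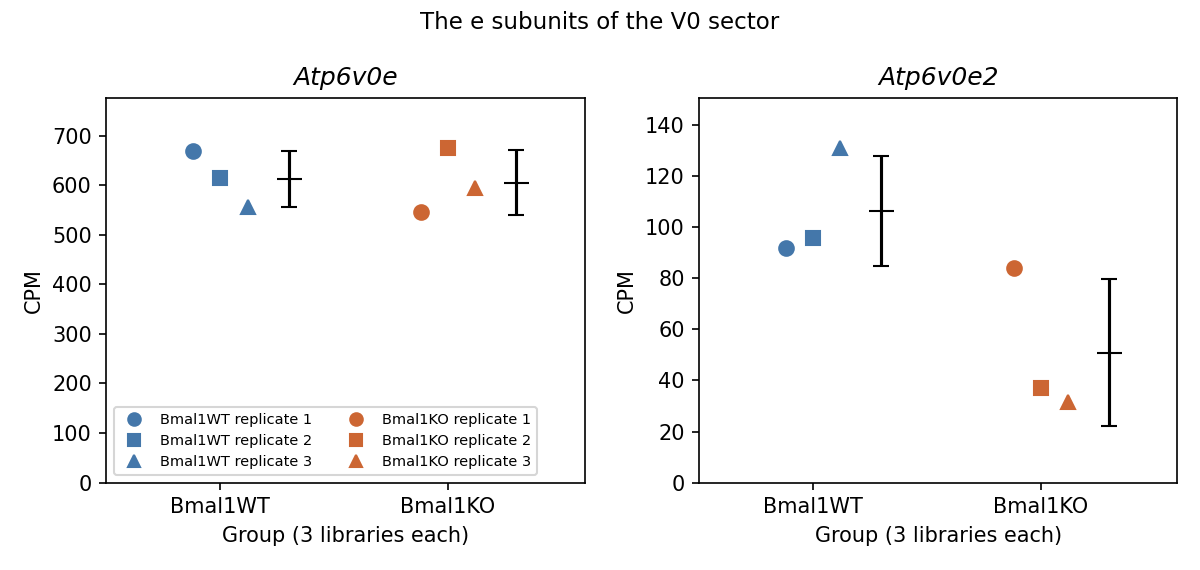
CPM (vertical axes from 0) of Atp6v0e and Atp6v0e2 in each library, with the group mean and SD (n = 3) to the right of each group. For Atp6v0e the groups overlap, and for Atp6v0e2 all Bmal1KO libraries are lower, with replicate 1 at 84.1 CPM next to the lowest Bmal1WT library at 91.7 CPM.

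No other V0 gene had an unadjusted p under 0.05. Atp6v0c and Atp6v0b encode subunits of the proton-carrying ring, Atp6v0d1 the stalk that joins the sectors, and Atp6v0a1 a form of the large a subunit with the proton channel. Their log2 fold changes ran from -0.075 (Atp6v0d1) to 0.12 (Atp6v0a1), all under their SE. Atp6v0a1 was at 122, 187 and 202 CPM in Bmal1WT against 166, 201 and 186 CPM in Bmal1KO libraries. Atp6v0c has processed pseudogenes that can share its reads. The accessory genes Atp6ap1 and Atp6ap2, the latter the prorenin receptor, had log2 fold changes of -0.094 and -0.047.

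Among the 8 V1 subunits, which form the ATP-burning part, 5 were higher and 3 lower, with a median log2 fold change of 0.062. Atp6v1a, the catalytic A subunit (ENSMUSG00000052459.13, mm10 chr16:44085402-44139705, - strand), had the largest value on the higher side of all 40 genes. It was at 193, 242 and 226 CPM in the Bmal1WT libraries and 212, 292 and 376 CPM in the Bmal1KO libraries. Bmal1KO replicates 2 and 3 lay above every Bmal1WT library and replicate 1 lay among them. The log2 fold change was 0.41 (SE 0.21) and missed the threshold of the edgeR test (unadjusted p = 0.075, adjusted p = 0.564). Without Bmal1KO replicate 1 it was 0.60 (adjusted p = 0.1).

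The partner of the A subunit in the catalytic ring had a smaller value, and the difference between the subunits was not tested. Atp6v1b2, the B subunit, was at 914, 819 and 896 CPM in Bmal1WT against 669, 1006 and 1014 CPM in Bmal1KO libraries, a log2 fold change of 0.033 (95% interval -0.40 to 0.46). Here too Bmal1KO replicates 2 and 3 lay above every Bmal1WT library, but replicate 1 lay below them all. Without Bmal1KO replicate 1 the log2 fold change of Atp6v1b2 was 0.20. The lowest of the V1 genes was the stalk subunit Atp6v1e1, at -0.13 (95% interval -0.47 to 0.20). Atp6v1c1, Atp6v1d, Atp6v1f, Atp6v1g1 and Atp6v1h lay between -0.10 and 0.14. For 14 of the 16 pump genes the 95% interval lay within a 1.5-fold change in either direction, against 16.2% of all tested genes. The tested genes were not matched to the pump genes in count level, on which the width of an interval depends.

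Variant subunits, also those outside the 40 genes, were compared by their share of transcripts. Such shares in whole tissue show neither protein nor assembled pumps. Of the a subunits, Tcirg1, the form known from osteoclasts and macrophages, made up 56.6% ± 4.92 (SD, n = 3) in Bmal1WT and 57.6% ± 4.21 in Bmal1KO per length, Atp6v0a1 34.7% ± 5.62 (SD, n = 3) in Bmal1WT and 33.6% ± 3.45 in Bmal1KO, and Atp6v0a2 8.53% ± 0.767 (SD, n = 3) in Bmal1WT and 8.19% ± 1.47 in Bmal1KO. Of the d subunits, Atp6v0d2, also known from osteoclasts and macrophages, made up 65.5% ± 2.08 (SD, n = 3) in Bmal1WT and 64.9% ± 7.17 in Bmal1KO and the general form Atp6v0d1 the rest. The shares overlapped between genotypes for each of these genes. The forms of kidney and testis were at or near 0: Atp6v1g3 had 0 counts in all libraries, and Atp6v1b1 and Atp6v1e2 had counts in Bmal1KO replicate 1 alone, at 0.301 and 0.902 CPM.

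Cathepsins, the proteases of the lysosome, had the widest spread between Bmal1KO libraries of the 8 roles (median SD 0.491 log2 units) and no difference between genotypes that passed. The 7 genes summed to 23636, 19052 and 19777 CPM in the Bmal1WT libraries and 14125, 21123 and 25598 CPM in the Bmal1KO libraries. Bmal1KO replicate 1 was the lowest and Bmal1KO replicate 3 the highest of the 6, with the Bmal1WT libraries between them. The median log2 fold change was -0.058, with 2 higher and 5 lower.

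Ctsb was at 10972, 9202 and 9484 CPM in the Bmal1WT libraries and 7186, 9883 and 11767 CPM in the Bmal1KO libraries. Ctsd was at 5026, 4156 and 4604 CPM in Bmal1WT against 3407, 4968 and 6994 CPM in Bmal1KO libraries, and Ctsl at 4383, 3006 and 3202 CPM in Bmal1WT against 1749, 3208 and 3753 CPM in Bmal1KO libraries. In each the lowest library and, for Ctsb and Ctsd, also the highest one was a Bmal1KO library, so the groups overlapped. The log2 fold changes were -0.041 for Ctsb (95% interval -0.55 to 0.47), 0.16 for Ctsd (-0.41 to 0.72) and -0.28 for Ctsl (-0.90 to 0.34). Ctsa, which shields a galactosidase and a sialidase and shares exon sequence with the opposite-strand gene Pltp, was at -0.087 and Ctsz at -0.15. Ctsc, which activates granule proteases of immune cells, and Ctsh, an aminopeptidase, were at -0.058 and 0.15. They were lowest in different libraries, Ctsc in Bmal1KO replicate 1 and Ctsh in Bmal1WT replicate 3.

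The 8 other hydrolases had the same lowest and highest library. They summed to 3315, 2941 and 3263 CPM in the Bmal1WT libraries and 2089, 3247 and 3700.4 CPM in the Bmal1KO libraries, again with both extremes in Bmal1KO. Lipa, the acid lipase that frees cholesterol and fatty acids from engulfed lipid, was at 1018, 907 and 909 CPM in Bmal1WT against 629.9, 1032 and 1247 CPM in Bmal1KO libraries (log2 fold change 0.038). Gusb, which cleaves glucuronides, was at 609, 509 and 541 CPM in Bmal1WT against 292, 532 and 667 CPM in Bmal1KO libraries (-0.15), and Hexa at 946, 801 and 861 CPM in Bmal1WT against 518, 876 and 863 CPM in Bmal1KO libraries (-0.21). In these 3 genes Bmal1KO replicate 1 stood alone at the bottom. Gla, the galactosidase of globotriaosylceramide, had the largest value of the enzymes, at 40.3, 30.3 and 38.1 CPM in Bmal1WT against 29.9, 45.6 and 63.8 CPM in Bmal1KO libraries (log2 fold change 0.36, SE 0.26, edgeR adjusted p = 0.687).

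Gaa, the glycogen-cleaving acid glucosidase, did not follow the others. It was at 136, 142 and 206 CPM in Bmal1WT against 150.1, 149.8 and 141 CPM in Bmal1KO libraries, and Bmal1KO replicate 1 was the highest of its group. Glb1, a galactosidase, Neu1, a sialidase, and Man2b1, a mannosidase, had log2 fold changes of -0.061, -0.0056 and -0.012. All 15 cathepsin and hydrolase genes had 95% intervals within a 2-fold change in either direction, and 6 of 15 within 1.5-fold. Over all tested genes, which were not matched in count level, the shares were 52.2% and 16.2%.

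Lumenal cofactors had both extremes in Bmal1KO too. Lamp1 and Lamp2 were also highest in Bmal1KO replicate 3, but both were lowest in Bmal1WT replicate 3. Grn was at 1418, 1308 and 1533 CPM in Bmal1WT against 982, 1531 and 1849.8 CPM in Bmal1KO libraries and Psap at 2255, 2519 and 2403 CPM in Bmal1WT against 1729, 2390.3 and 2697 CPM in Bmal1KO libraries, each lowest in Bmal1KO replicate 1 and highest in replicate 3. Lamp1 was at 382, 380.2 and 309 CPM in the Bmal1WT libraries and 362, 421 and 432 CPM in the Bmal1KO libraries, and Lamp2, which also serves as the receptor of chaperone-mediated autophagy, at 482, 436 and 408 CPM in Bmal1WT against 439.7, 526 and 531 CPM in Bmal1KO libraries. Here Bmal1KO replicate 1 lay among the Bmal1WT libraries. The log2 fold changes were 0.18 for Lamp1 (95% interval -0.18 to 0.54) and 0.17 for Lamp2 (-0.18 to 0.53). Mcoln1 and Scarb2, the receptor that carries glucocerebrosidase to the lysosome, were at 0.19 and -0.022.

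No regulator passed the test, and all 3 had 95% intervals within a 2-fold change. Tfeb was at 20.9, 21.6 and 24.3 CPM in the Bmal1WT libraries and 15.8, 24.3 and 25.9 CPM in the Bmal1KO libraries (log2 fold change -0.012, SE 0.25, unadjusted p = 0.961, edgeR adjusted p = 0.99). Tfe3 was at 62.3, 87.3 and 80.1 CPM in Bmal1WT against 82.7, 85.3 and 87.7 CPM in Bmal1KO libraries (log2 fold change 0.16, SE 0.17, unadjusted p = 0.385, edgeR adjusted p = 0.798). Mitf was at 20.0, 18.5 and 16.0 CPM in Bmal1WT against 17.9, 26.5 and 19.9 CPM in Bmal1KO libraries (log2 fold change 0.24, SE 0.25, unadjusted p = 0.351, edgeR adjusted p = 0.786). The groups overlapped for all 3. MITF is also known from mast cells. Their 5 markers summed to 114, 143 and 70.3 CPM in Bmal1WT against 387, 245 and 372 CPM in Bmal1KO libraries, without overlap. In the main fit 5 of 5 were higher, against 52% of all tested genes. With limma voom, and without Bmal1KO replicate 1, 4 of 5 were higher. By gene, 4 of 5 were higher without overlap, against 7.83% of all tested genes. Among Bmal1KO libraries the sum was lowest in replicate 2, where Mitf was highest. The part of mast cells in the Mitf value was not tested. Per length, Tfe3 made up 50.6% ± 4.91 (SD, n = 3) in Bmal1WT and 52.1% ± 5.21 in Bmal1KO of the transcripts of the family of 4 with Tfec. TFEB and TFE3 are controlled largely by phosphorylation and by their place in the cell, which RNA levels do not show.

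**Figure D3:**
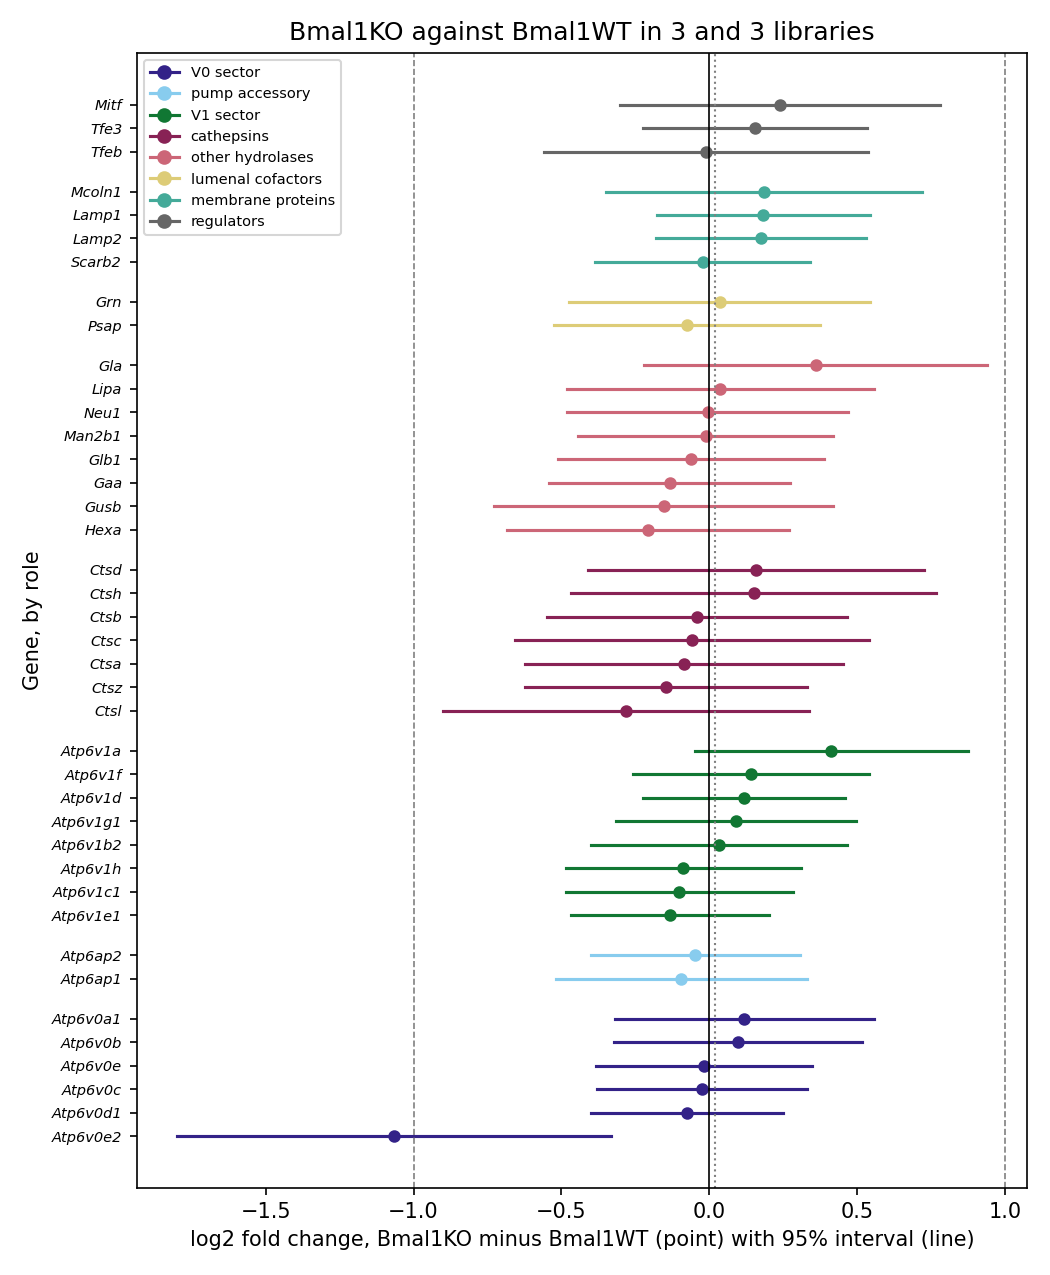
Log2 fold change of each of the 40 genes, Bmal1KO minus Bmal1WT (points), with its 95% interval (lines), grouped and coloured by role. Dashed lines mark a 2-fold change and the dotted line the median of all tested genes. Atp6v0e2 at -1.07 stands apart, and the other 39 intervals lie within the dashed lines and include 0.

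The spread of the Bmal1KO libraries ran through most of the 40 genes. Bmal1KO replicate 1 was the lowest library for 27 of 40 (67.5%), against 17.9% of all tested genes, and Bmal1KO replicate 3 the highest for 20 of 40 (50%), against 17.8%. For 31 of 40 genes (77.5%) the SD of log2 CPM was larger in Bmal1KO than in Bmal1WT, against 58.2% of all tested genes. That share was 61.1% in 90 other lysosomal and related genes, with 75% in 8 other proteases and 46.7% in 15 autophagy genes. It was 91.7% in the macrophage markers and 100% in the markers of lipid-associated macrophages and of fat cells. The median SD over the 40 genes was 0.313 log2 units in Bmal1KO and 0.155 in Bmal1WT. Over all tested genes it was 0.345 and 0.284. These counts describe 6 libraries and are no test of variability. Bmal1KO replicate 1 was also the shallowest library, with counts on 30019 genes against 19009 to 20145 in the others. The part of library quality in the spread was not tested.

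By role, the median log2 CPM relative to the Bmal1WT mean was, for cathepsins, 0.19, -0.10 and -0.10 in the Bmal1WT libraries and -0.58, 0.020 and 0.20 in the Bmal1KO libraries. For V1 subunits it was 0.068, 0.040 and -0.083 in the Bmal1WT libraries and -0.23, 0.16 and 0.22 in the Bmal1KO libraries. Bmal1KO replicate 1 thus lay lower for proteases than for the pump. Markers of macrophages, lipid-associated macrophages and fat cells differed between the same libraries. The median of the 12 macrophage markers was 0.24, 0.10 and -0.32 in the Bmal1WT libraries and -0.28, 0.70 and 0.64 in the Bmal1KO libraries, and 11 of 12 had a log2 fold change above 0. The median of the 7 markers of lipid-associated macrophages, such as Trem2 and Gpnmb, was 0.11, 0.021 and -0.16 in the Bmal1WT libraries and -0.52, 0.10 and 0.64 in the Bmal1KO libraries. Their sums ran from 7298 to 11248 CPM in Bmal1WT and from 7691 to 16334 CPM in Bmal1KO for the former, and from 5814 to 6393 and from 4453 to 10395 CPM for the latter. No marker of either list was at 0 in any library. By median, the lipid-associated list had the same lowest and highest library as the cathepsins. The 12 macrophage markers did not, with the lowest median in Bmal1WT replicate 3 and the highest in Bmal1KO replicate 2. The part of macrophage content in the lysosomal values was not tested.

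**Figure D4:**
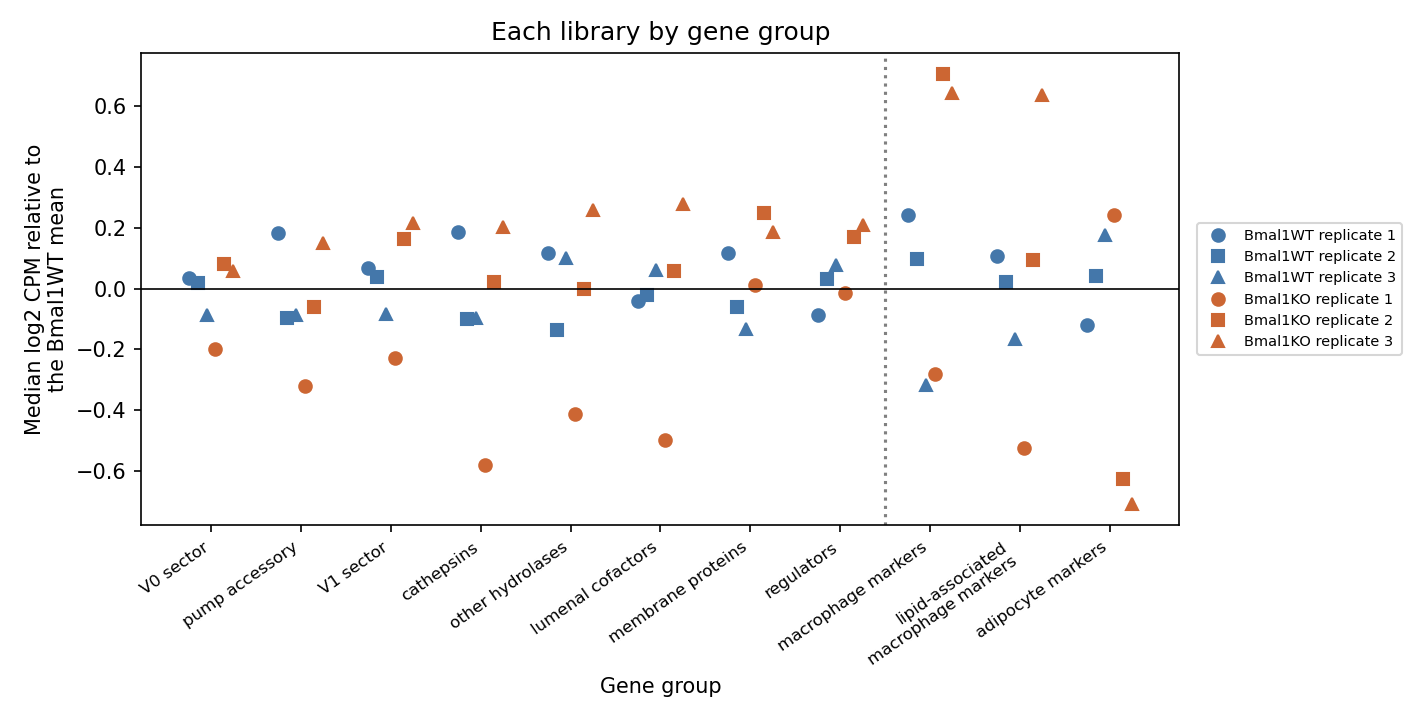
Median log2 CPM of each gene group relative to the Bmal1WT mean (vertical axis) in each library, for the 8 roles and, right of the dotted line, for markers of 3 cell populations. Bmal1KO replicate 1 (orange circles) is lowest for the pump groups, cathepsins, hydrolases and lumenal cofactors, at -0.58 for cathepsins.

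The 40 genes had no stable direction, and the numbers moved with single libraries. Without Bmal1KO replicate 1, 34 of the 40 genes were higher and 6 lower, with a median log2 fold change of 0.13, against 0.011 over all genes tested in that fit. At an unadjusted p under 0.05 there were then 2 higher members, Atp6v1a and Gla (7.53% of all genes tested in that fit), and 1 lower, Atp6v0e2 (8.66%). Without Bmal1WT replicate 1 as well, 36 of 40 were higher, the median was 0.18, and Atp6v0e2 was again called (adjusted p = 0.0211, 0.437% of all genes called). At an unadjusted p under 0.05 that fit had 7 higher members, namely Atp6v0b, Atp6v1a, Ctsc, Ctsd, Ctsh, Gla and Lamp2 (7.28% of all genes tested in it), and 1 lower, Atp6v0e2 (7.62%). None of these 7 passed after adjustment. Without Bmal1WT replicate 1 alone the median was 0.037, with 25 of 40 higher, and with limma voom it was 0.0084, with 21 of 40 higher. Without Bmal1KO replicate 3 the median was -0.13 instead, with 13 of 40 higher. Scaling by library size alone also turned 15 members from lower to higher, to 32 of 40 higher and a median of 0.079, while the median of all tested genes moved to 0.11. Relative to all genes the 40 were close to the median under either scaling.

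Other genes of the lysosome and of related processes, 95 in 7 lists of which 90 were tested, gave no call either (0% of all tested genes). At an unadjusted p under 0.05, 1 of the 90 was higher and 5 were lower, against 5.05% and 4.26% of all tested genes. Among 24 further hydrolases the median log2 fold change was 0.034, with 13 higher. Dnase2a, the acid DNase that digests engulfed DNA, was at 37.3, 29.4 and 33.7 CPM in Bmal1WT against 34.6, 61.5 and 69.2 CPM in Bmal1KO libraries (log2 fold change 0.72, SE 0.25, edgeR adjusted p = 0.446), with Bmal1KO replicate 1 among the Bmal1WT libraries. Acp5, the tartrate-resistant phosphatase of macrophages and osteoclasts, was at 461, 412 and 519.8 CPM in Bmal1WT against 421, 298 and 297 CPM in Bmal1KO libraries (-0.46, SE 0.19).

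Of the 8 further proteases 4 were higher and 4 lower. Ctss, the protease that prepares MHC class II for loading, was at 4756 TPM, between those of Ctsb and Ctsd, with a log2 fold change of 0.20 (SE 0.22). Ctsf was at -0.32 and Ctse, with 0 to 1.48 CPM, near the floor of 3 counts. Of 5 tested pump variants, Tcirg1 was at 0.21, and Atp6v1g2 and Atp6v1c2, both under 8 CPM, at -0.70 and -0.37.

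Among 16 further membrane proteins 6 were higher and 10 lower. Laptm4b, a protein of late endosome membranes, was at 218, 226 and 212 CPM in Bmal1WT against 204, 117 and 122 CPM in Bmal1KO libraries (log2 fold change -0.57, SE 0.21, edgeR adjusted p = 0.475). It was low in Bmal1KO replicates 2 and 3 and near Bmal1WT in replicate 1, as Atp6v0e2 was. Npc2, which passes cholesterol out of the lumen, and Clcn7, its chloride exchanger, were at -0.36 and 0.32. All 6 sorting genes were lower, by small amounts (median -0.10), but 3 of them were higher with library size alone. Sort1, the sorting receptor sortilin, was at 127, 122 and 125 CPM in Bmal1WT against 134, 80.5 and 73.5 CPM in Bmal1KO libraries (-0.38, SE 0.22), again low in Bmal1KO replicates 2 and 3 alone. Nagpa and Gnptab, which make the mannose phosphate tag of lysosomal enzymes, were at -0.18 and -0.14.

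The autophagy list leaned to the lower side under every alternative, with 11 to 15 of its 15 genes lower. In the fit of all 6 libraries 13 were lower and 2 higher, with a median log2 fold change of -0.15, and 13 were also lower with library size alone (median -0.057) and without Bmal1KO replicate 1 (median -0.22). In 3 of 15 the groups did not overlap, all lower, against 7.85% of all tested genes lower and 7.83% higher without overlap. Over the 90 tested genes of all 7 lists, 4 were higher and 6 lower without overlap. Among the 24 further hydrolases, 3 were higher and 1 lower without overlap. Map1lc3b, the LC3 protein that coats autophagosomes, was at 491, 356 and 402 CPM in Bmal1WT against 333, 291 and 306 CPM in Bmal1KO libraries (-0.43, SE 0.17, edgeR adjusted p = 0.477). Rab7, the GTPase that guides fusion with the lysosome, was at 480.5, 438 and 458 CPM in Bmal1WT against 332, 341 and 384 CPM in Bmal1KO libraries (-0.38, SE 0.15, edgeR adjusted p = 0.477), and Becn1, which starts autophagosome formation, at -0.33. These 3 genes were low in all Bmal1KO libraries. None passed the test.

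The list for mTORC1, the nutrient-sensing kinase complex, and for the control of TFEB and its relatives had 16 tested genes. Of these, 9 were higher and 7 lower. Without overlap, 1 of the 16 was higher and 1 lower, against 7.83% and 7.85% of all tested genes. Fnip2, a partner of folliculin, was at 9.01, 11.7 and 12.1 CPM in Bmal1WT against 12.3, 18.0 and 16.1 CPM in Bmal1KO libraries (0.50, SE 0.28), without overlap. Lamtor1, which anchors the complex to the lysosome, was at 339.7, 348 and 325 CPM in Bmal1WT against 287, 306 and 290.3 CPM in Bmal1KO libraries (-0.20, SE 0.14), without overlap on the lower side. Lamtor3 was at -0.24.

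**Figure D5:**
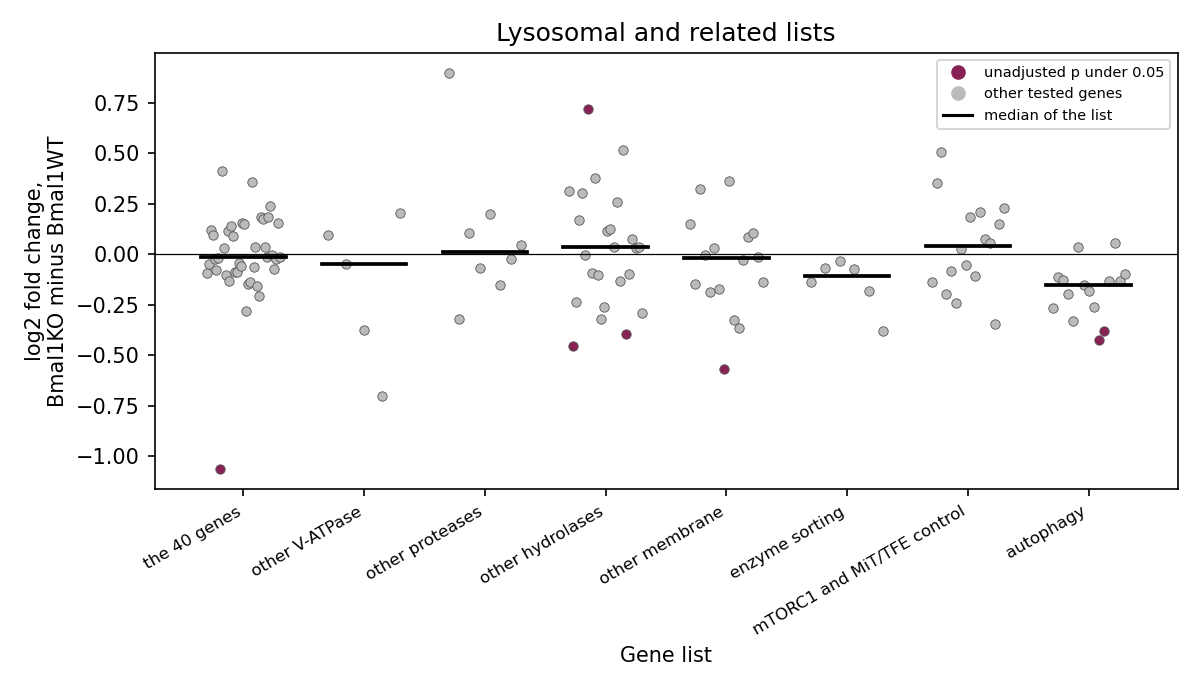
Log2 fold change, Bmal1KO minus Bmal1WT (vertical axis), of each tested gene in the 40-gene group and in 7 related lists, with the median of each list as a bar. Dark points have an unadjusted p under 0.05 and none passed after adjustment. The bars lie near 0, the lowest being autophagy at -0.15.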

How the data were processed

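The authors deposited raw counts per gene symbol for 6 libraries. Per the submitters' processing notes, reads were aligned with STAR 2.7.3a to mm10 and counted with featureCounts. Which annotation and strand setting were used, and how multi-mapped reads were handled, is not stated in those notes. Per the labels' protocols, 2 ng of RNA was primed with oligo(dT), amplified and cut by transposase, and paired reads of 38 bp were sequenced, a method that marks no strand and has no molecular identifiers. Of the 40 genes, 12 share exon sequence with another GENCODE M21 gene, 10 of them on the opposite strand, and these reads cannot be told apart.

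Groups and replicate numbers came from the titles, which do not say that samples are separate animals, so the p-values cover the spread of these libraries, which may be technical. Tests used edgeR 4.0.16 under R 4.3.3 (filterByExpr, TMM, robust quasi-likelihood F-test, no covariates, Benjamini-Hochberg over 13859 genes, threshold 0.05). CPM values use TMM-scaled library sizes, log2 CPM a prior count of 2, and TPM the union exon length of the 52897 symbols that match 1 GENCODE M21 gene. The SE is the absolute coefficient over the square root of F, and 95% intervals use the test's degrees of freedom and are not adjusted for the number of genes. The floor of 3 counts equals 0.323 to 0.451 CPM and covers counting error only. Exact tests of 3 against 3 libraries cannot go below p = 0.1. The test was tried on simulated counts with the same dispersion for every gene and no added spread between libraries. That trial does not cover the spread between the Bmal1KO libraries.

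The members, lists and tests were chosen with earlier results of these data known. Values in full were given for members without overlap or with an unadjusted p under 0.05 and for Tfeb, Tfe3 and Mitf, and for up to 3 genes of smallest p per related list. A gene that this rule names is not reported here. Other genes named with values were chosen after their values were seen, as were the counts of libraries ranked lowest and highest. Alternatives were other scalings, filters, DESeq2 1.42.0, limma 3.58.1 voom, the replicate block and left-out libraries.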

Additional observations from a re-analysis of the deposited data

How the results depend on the processing

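The number of members called was 0 in most of the 14 alternatives and 1, Atp6v0e2, without a filter on low counts (adjusted p = 9.56e-05, with 0.539% of 34517 genes called) and without the first replicate of both groups. With 1 library left out at a time it ran from 0 to 1, the 1 being without Bmal1KO replicate 1, the median log2 fold change from -0.13 to 0.13, and the members higher in Bmal1KO from 13 to 34. That number was 32 with library size alone and 36 without both first replicates. Atp6v0e2 was lower under every alternative, from -1.72 to -0.82. Tfeb changed sign, at 0.082 with library size alone, 0.032 with limma voom, 0.14 without both first replicates, and between -0.15 and 0.17 with 1 library left out, with 0 calls. Deviations of same-numbered libraries correlated at -0.070 to 0.094, and 2 of 6 libraries correlated best with their own number. So few libraries cannot show whether the replicate numbers pair them. With the replicate block 0 members were called, 15 were higher and the median was -0.026. The causes were not tested. With 3 libraries a group, 1.5-fold differences were within the interval of 13 of the 40 genes.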
